A study of Mus musculus with 24 samples.

Results

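Fatty acid desaturases and elongases were followed as 10 genes chosen by name, Scd1, Scd2, Fads1, Fads2, Elovl1, Elovl2, Elovl3, Elovl5, Elovl6 and Fa2h, out of 40481 genes with a value in both tissues. All 10 were present in the ileum and liver tables. This list and those of related genes were drawn up with earlier results of these data known. The shares of all genes set beside their counts are therefore descriptive and not a test. RNA from ileum and from liver of C57BL/6 mice was sequenced after 75% small bowel resection, with 3 libraries in each of 8 groups. In each tissue these were Abca1 fl/fl X Villin-Cre mice given GW3965, Villin-Cre mice given vehicle, Abca1 fl/fl mice (floxed) given GW3965, and floxed mice given vehicle. Every group carried the floxed Abca1 allele and had been operated on 10 weeks before. The oral dose of GW3965 was 1 mg/kg/day on 2 occasions a week during the last 5 weeks, suspended in 0.5% carboxymethyl cellulose, and the labels name the other treatment only as vehicle. The Villin promoter drives Cre in the intestinal epithelium, so that Abca1 is lost there and not in other cells of the gut wall or, by design, in the liver.

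Desaturases put double bonds into fatty acids bound to coenzyme A, and elongases (the Elovl enzymes) start each round of adding carbons to them in the endoplasmic reticulum. Scd1 and Scd2 encode desaturases that make oleate and palmitoleate from saturated fatty acids. Fads2 and Fads1 encode the desaturases that act in turn, with the elongases Elovl5 and Elovl2 between and after them, to make arachidonic and docosahexaenoic acid from dietary linoleic and linolenic acid. Elovl6 lengthens palmitate to stearate, Elovl1 and Elovl3 make very long saturated and monounsaturated chains, and Fa2h, which is neither a desaturase nor an elongase, hydroxylates fatty acids that enter sphingolipids. GW3965 is a man-made ligand that activates the liver X receptors (LXR), nuclear receptors otherwise activated by oxysterols. The study's title poses the question of whether a low oral dose of it acts on LXR in the intestine. In mouse liver LXR is known to raise Srebf1, the transcription factor gene of fatty acid synthesis, and Scd1.

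Ileal libraries held 17.001 to 24.2 M reads assigned to genes, and liver libraries 26.5 to 32.3 M. The tissues carried their labels: Vil1, the villin gene of enterocytes, had 2061 to 3779 CPM (reads of a gene per M reads assigned) in the ileum and 0.23 to 1.69 CPM in the liver, while Alb, the albumin gene of hepatocytes, had 5.05 to 30.3 CPM in the ileum and 35808 to 58504 CPM in the liver. Ileal Abca1 averaged 53.8 CPM in Villin-Cre mice and 372 CPM in floxed mice with GW3965, and 28.3 CPM in Villin-Cre mice and 57.2 CPM in floxed mice with vehicle, a log2 fold change of -2.74 (adjusted p = 2.49e-10) and -1.01 (adjusted p = 3.51e-05). These values cover the whole gene, and the labels do not say which exons are floxed. Most libraries of 1 group lay close together, with a variance 2.59 to 3.96 times that of counting alone. Ileum floxed GW3965 replicate 3 and liver floxed GW3965 replicate 1 instead differed from the rest of their groups by 7.20 to 8.89 times. Counting alone here takes each read as independent, which was not tested. Of the gene counts examined, 57.0 to 58.7% were even numbers in ileal libraries and 56.3 to 57.9% in liver libraries. Since no label assigns a library to an animal, the p-values reflect differences among libraries of 1 group, and these could be technical. As an alternative, close libraries were averaged, which left 5 units and 1 residual degree of freedom in each tissue, and its calls are given beside the counts.

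In the liver the transcripts were far from equal in level. Per kilobase of exon, Scd1 stood first in all 4 groups, with a mean of 4198 ± 57.7 CPM per kb in Villin-Cre mice given GW3965, 2223 ± 14.4 in Villin-Cre mice given vehicle, 1710 ± 8.83 in floxed mice given GW3965 and 6708 ± 54.0 in floxed mice given vehicle (SD, n = 3 each). In floxed mice given vehicle, Fads2 (586 CPM per kb), Elovl5 (523), Fads1 (363), Elovl2 (287), Scd2 (90.9), Elovl6 (44.9), Elovl1 (21.2), Elovl3 (4.21) and Fa2h (0.125) followed, each separated from its neighbours by more than their SDs. In floxed mice given GW3965, Fads2 (321 CPM per kb) and Elovl5 (309), Fads1 (203) and Elovl2 (201), Elovl3 (25.0) and Elovl6 (23.8), and Elovl6 and Elovl1 (16.5) were neighbours that did not differ beyond their spread. Together the 10 genes took 2.49 to 2.55% of the assigned reads in Villin-Cre mice given GW3965, 1.396 to 1.415% in Villin-Cre mice given vehicle, 1.24 to 1.30% in floxed mice given GW3965 and 3.998 to 4.06% in floxed mice given vehicle. Scd1 alone took 0.832 to 3.31% of a liver library.

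The liver response to GW3965 ran in opposite directions in the 2 genotypes. With GW3965, 6 of the 10 genes (Scd1, Scd2, Fads1, Fads2, Elovl2 and Elovl5) rose in Villin-Cre mice and 4 did not pass the test, while 11.9% of all 17520 genes tested changed there, 2.85% upward and 9.03% downward. In floxed mice 8 genes fell (Scd1, Scd2, Fads1, Fads2, Elovl1, Elovl2, Elovl5 and Elovl6), Elovl3 rose and Fa2h did not pass, against 30.1% of all genes that changed, 10.4% upward and 19.7% downward. The median log2 fold change of the 10 was 0.44 in Villin-Cre mice, against -0.08 for all genes, and -0.80 in floxed mice, against -0.04 for all genes. The same 6 genes that rose in Villin-Cre mice fell in floxed mice, a combination met by 158 genes or 0.902% of those tested. Since the 10 were chosen with earlier results of these data known, that share is no test of them. The difference between the responses, Villin-Cre minus floxed, passed the test for 8 of 10 genes, all higher, against 19.9% of all genes, 10.2% higher and 9.7% lower. With close libraries averaged, limma called 0 of the 10 in Villin-Cre mice (0 with an unadjusted p under 0.05), Scd2 alone in floxed mice, and 0 in the difference (5 with an unadjusted p under 0.05). Of all 17520 genes, that fit called 0 in Villin-Cre mice and in the difference, and 0.0285% in floxed mice.

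**Figure D1:**
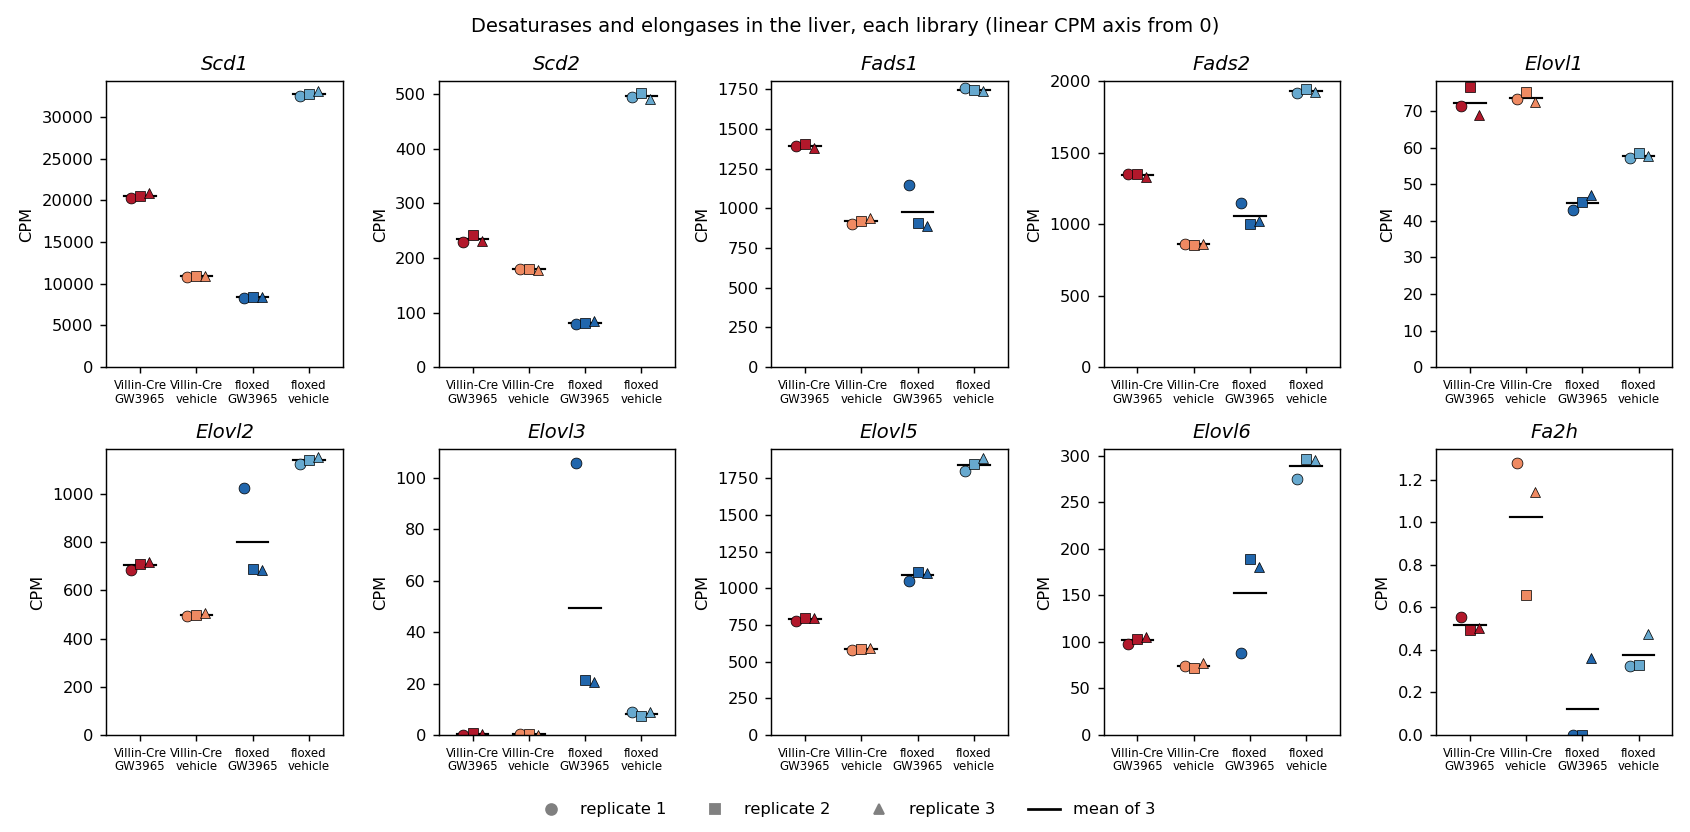
CPM of the 10 genes in each liver library (points, marker shape by replicate) and the mean of 3 (line), on linear axes that start at 0, by genotype and treatment. Scd1 lies between 20284 and 20842 CPM in Villin-Cre mice given GW3965, between 10795 and 10922 CPM in those given vehicle, between 8317 and 8401 CPM in floxed mice given GW3965, and between 32553 and 33081 CPM in floxed mice given vehicle.

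Scd1, the main desaturase of oleate synthesis in mouse liver, had 20284, 20491 and 20842 CPM in Villin-Cre mice given GW3965, against 10795, 10913 and 10922 CPM in those given vehicle. In floxed mice it had 8317, 8376 and 8401 CPM with GW3965, against 32553, 32814 and 33081 CPM with vehicle. All libraries given GW3965 were above vehicle in Villin-Cre mice and below it in floxed mice, and no pair of the 4 groups overlapped. The log2 fold change was 0.92 ± 0.073 (SE) in Villin-Cre mice (adjusted p = 4.28e-06) and -1.97 ± 0.073 in floxed mice (adjusted p = 5.99e-10), a difference of 2.89 ± 0.10 (adjusted p = 8.49e-10). Scd2 catalyses the same reaction and is better known from brain and other tissues outside the adult liver. It had 230, 242 and 231 CPM with GW3965 and 180, 180 and 178 CPM with vehicle in Villin-Cre mice. In floxed mice it had 78.9, 81.6 and 83.9 CPM with GW3965, against 496, 503 and 491 CPM with vehicle. No pair of its 4 groups overlapped either, with the lowest values in floxed mice given GW3965 and the highest in floxed mice given vehicle. Scd2 changed by 0.38 ± 0.041 in Villin-Cre mice (adjusted p = 5.08e-05) and by -2.60 ± 0.041 in floxed mice (adjusted p = 2.86e-14), with a difference of 2.99 ± 0.057 (adjusted p = 5.07e-13). The fall in floxed mice was the call that held when close libraries were averaged (adjusted p = 0.0301). The exons of Scd1 and Scd2, 87.6 kb apart on chromosome 19, share no run of 150 bases, the length of 1 read. They do share 145 runs of 50 bases, and whether reads were assigned to the wrong gene of the pair was not tested.

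Fads2 and Fads1, neighbours on chromosome 19 with 81.1 kb between them, changed in the same direction as each other in each genotype. Fads2 had 1355, 1350 and 1330 CPM with GW3965 and 864, 854 and 862 CPM with vehicle in Villin-Cre mice. In floxed mice it had 1152, 999 and 1020 CPM with GW3965, against 1918, 1947 and 1925 CPM with vehicle. Treated libraries were above vehicle in Villin-Cre mice and below it in floxed mice without overlap, and floxed GW3965 replicate 1 was the highest of its group. Fads1 had 1395, 1403 and 1380 CPM with GW3965 and 902, 919 and 937 CPM with vehicle in Villin-Cre mice. In floxed mice it had 1144, 905 and 886 CPM with GW3965, against 1758, 1743 and 1739 CPM with vehicle. Again floxed GW3965 replicate 1 stood above the other two and below every vehicle library. The log2 fold changes of Fads2 were 0.65 ± 0.053 (adjusted p = 5.87e-06) in Villin-Cre mice and -0.87 ± 0.053 (adjusted p = 6.71e-08) in floxed mice, and those of Fads1 were 0.60 ± 0.076 (adjusted p = 0.000229) and -0.85 ± 0.076 (adjusted p = 1.96e-06). The genotypes' responses differed by 1.52 ± 0.075 for Fads2 (adjusted p = 1.69e-08) and by 1.45 ± 0.11 for Fads1 (adjusted p = 1.04e-06).

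The elongases of polyunsaturated fatty acids, Elovl5 and Elovl2, changed in the same directions as the Fads genes. Elovl5 had 777, 796 and 799 CPM with GW3965 and 581, 586 and 593 CPM with vehicle in Villin-Cre mice, against 1049, 1109 and 1106 CPM with GW3965 and 1797, 1849 and 1884 CPM with vehicle in floxed mice. Elovl2 had 683, 709 and 717 CPM with GW3965 and 492, 499 and 507 CPM with vehicle in Villin-Cre mice, against 1025, 688 and 683 CPM with GW3965 and 1122, 1140 and 1153 CPM with vehicle in floxed mice. Treated and vehicle libraries did not overlap for either gene, although floxed GW3965 replicate 1 came near the vehicle level for Elovl2. Elovl5 changed by 0.43 ± 0.043 in Villin-Cre mice (adjusted p = 3.47e-05) and -0.76 ± 0.043 in floxed mice (adjusted p = 3.40e-08), and Elovl2 by 0.49 ± 0.11 (adjusted p = 0.0117) and -0.54 ± 0.11 (adjusted p = 0.00215). The responses differed by 1.19 ± 0.061 for Elovl5 (adjusted p = 2.53e-08) and 1.03 ± 0.16 for Elovl2 (adjusted p = 0.000425).

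The sequence just upstream of Elovl5, Elovl2 and Elovl1 is shown, because sterol-responsive and general promoter motifs are known for lipid genes. In Villin-Cre livers Elovl5 and Elovl2 rose and Elovl1 did not pass the test, while all of them fell in floxed livers. Whether Elovl1 differed from the others in response, or whether motifs bear on any response, was not tested. Promoters of 5 of the 10 genes (Fads2, Elovl1, Elovl2, Elovl5 and Elovl6) were matched in RefSeq on GRCm38.p6. Each line gives 163 bases that end 3 bases before the first annotated start, 5′ to 3′ on the gene's strand, with motif matches in capitals.
Elovl5 (chr9:77917200-77917362, plus strand): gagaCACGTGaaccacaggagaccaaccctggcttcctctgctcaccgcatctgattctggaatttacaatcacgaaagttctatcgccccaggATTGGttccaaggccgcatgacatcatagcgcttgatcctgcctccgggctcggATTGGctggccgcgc
Elovl2 (chr13:41220406-41220568, minus strand): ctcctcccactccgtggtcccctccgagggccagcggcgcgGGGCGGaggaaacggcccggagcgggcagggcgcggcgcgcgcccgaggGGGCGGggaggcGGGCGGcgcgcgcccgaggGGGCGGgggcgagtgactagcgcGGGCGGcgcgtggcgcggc
Elovl1 (chr4:118427928-118428090, plus strand): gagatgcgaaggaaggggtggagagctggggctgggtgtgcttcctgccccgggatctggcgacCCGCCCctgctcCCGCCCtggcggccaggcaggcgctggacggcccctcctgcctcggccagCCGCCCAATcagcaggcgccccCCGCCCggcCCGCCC
The motifs searched on both strands of the 250 upstream bases were a sterol element spelt TCACNCCAC, the letters CCAAT of a Y box, the E box CACGTG, the GC box GGGCGG, and a direct repeat of GGTCA with 5 free bases between its copies. Of 32851 RefSeq promoters, 1.05% held the sterol element, 33.8% the Y box, 6.02% the E box, 32.7% a GC box and 0.0639% the direct repeat. Elovl5 had 1 E box and 2 Y boxes, both read as ATTGG on the strand shown. Elovl2 had 5 GC boxes, and Elovl1 had 5 GC boxes, 1 of which overlapped its Y box. Fads2 had 1 GC box, and neither the sterol element nor the direct repeat matched in any of the 5. A match is a match of letters and not a site shown to be bound, and these windows leave out introns and distant elements.

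Elovl6, the elongase of palmitate, fell in floxed mice and did not pass the test in Villin-Cre mice. It had 97.5, 104 and 106 CPM with GW3965 and 74.6, 71.8 and 76.9 CPM with vehicle in Villin-Cre mice, against 88.6, 189 and 181 CPM with GW3965 and 275, 296 and 296 CPM with vehicle in floxed mice. Treated libraries were above vehicle in Villin-Cre mice and below it in floxed mice, but floxed GW3965 replicate 1 had less than either of the other two, and its spread enters the common error. The log2 fold changes were 0.46 ± 0.20 (adjusted p = 0.152) in Villin-Cre mice and -0.99 ± 0.20 (adjusted p = 0.00151) in floxed mice, and the responses differed by 1.45 ± 0.28 (adjusted p = 0.00225). In floxed mice the change was -0.64 without that library, and in Villin-Cre mice the test passed when only their 2 groups were fitted (adjusted p = 4.91e-09). Elovl1, which makes very long chains for sphingolipids, had 71.4, 76.5 and 68.9 CPM with GW3965 and 73.4, 75.3 and 72.5 CPM with vehicle in Villin-Cre mice, where the groups overlapped. Floxed livers had 42.9, 45.0 and 47.0 CPM with GW3965, all below the 57.3, 58.6 and 57.6 CPM with vehicle. Elovl1 fell by 0.36 ± 0.053 on the log2 scale in floxed mice (adjusted p = 0.00015), had a log2 fold change of -0.03 in Villin-Cre mice (adjusted p = 0.774), and its responses differed by 0.33 ± 0.075 (adjusted p = 0.00677).

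Elovl3 was the exception in the liver, since it rose with GW3965 in floxed mice. In Villin-Cre mice it had 0.15, 0.65 and 0.22 CPM with GW3965 and 0.21, 0.22 and 0.14 CPM with vehicle, which are 31 and 17 reads over 3 libraries each. Floxed mice had 106, 21.4 and 20.6 CPM with GW3965, against 8.80, 7.39 and 8.78 CPM with vehicle. The groups overlapped in Villin-Cre mice and were apart in floxed mice, where GW3965 replicate 1 was far above the other two. The log2 fold change was 0.23 ± 0.45 in Villin-Cre mice (adjusted p = 0.798). The value in floxed mice was 2.06 ± 0.45 (adjusted p = 0.00332), and 1.29 (adjusted p = 9.68e-06) without replicate 1. The difference between the responses, -1.83 ± 0.64, did not pass the test (adjusted p = 0.0603), but did without that library (-1.06, adjusted p = 0.00472) and without replicate 2 (-2.20) or 3 (-2.22) of the group. Elovl3 is known in mouse liver for higher levels in males and for a daily rhythm. Summed over 8 genes known to be higher in male liver, floxed GW3965 replicate 1 had 1992 CPM, against 527 and 534 CPM in the other two of its group, while the sum over 8 female-biased genes was 19.6 CPM in it, against 302 and 312 CPM. A large part of these sums came from single genes. Mup20, a male pheromone-carrier gene, had 1150 CPM in that library and as little as 129 CPM in its group. The female-biased Cyp2b9 had 0.831 CPM in that library and up to 268 CPM in its group. The sums therefore do not show that the other genes of each list moved with them. The male-biased sum was 385 to 386 CPM in Villin-Cre mice given GW3965, 283 to 292 CPM in those given vehicle and 569 to 592 CPM in floxed mice given vehicle, and the female-biased sum was 26.5 to 29.2, 71.9 to 74.4 and 131 to 137 CPM in the same 3 groups. The sum over 12 clock genes was 647 to 672, 719 to 749, 527 to 702 and 530 to 543 CPM in the order Villin-Cre GW3965, Villin-Cre vehicle, floxed GW3965 and floxed vehicle. The part of either in the Elovl3 result was not tested. Fa2h was close to the detection limit in the liver. It had 0.55, 0.50 and 0.50 CPM with GW3965 and 1.28, 0.66 and 1.14 CPM with vehicle in Villin-Cre mice, where the groups did not overlap but the test was not passed. In floxed mice 2 GW3965 libraries had 0 reads, which allows up to 0.106 CPM, and the rest of both groups had 0.33 to 0.48 CPM. Without replicate 3, the treated library with reads, the test was passed (-0.81, adjusted p = 0.0153). Its log2 fold changes were -0.56 (adjusted p = 0.144) in Villin-Cre mice and -0.54 (adjusted p = 0.1) in floxed mice, where the test was passed on the deposited log2 values (-2.86, adjusted p = 0.0249) and with voom on the recovered reads (-2.89, adjusted p = 0.0306).

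Cell type markers moved with part of these results. The summed level of 7 hepatocyte markers was 55068 to 56861 CPM with GW3965 and 50663 to 51096 CPM with vehicle in Villin-Cre mice, against 49866 to 62497 CPM with GW3965 and 72489 to 74746 CPM with vehicle in floxed mice, and 1 of the 7 fell in floxed mice. Of 5 bile duct cell markers, 4 fell with GW3965 in each genotype, with sums of 138 to 147 CPM and 276 to 282 CPM (GW3965 and vehicle) in Villin-Cre mice and of 48.4 to 71.1 CPM and 120 to 121 CPM in floxed mice. Of 6 macrophage markers, 4 fell in each genotype. Of all genes tested, 11.9% changed with GW3965 in Villin-Cre livers, 9.03% downward, and 30.1% in floxed livers, 19.7% downward. Of 8 fat cell markers 3 were tested, and with GW3965 in floxed livers Cidec and Fabp4 fell and Lipe rose, while none of the 3 passed in Villin-Cre livers. Their sums were 204 to 213 CPM and 232 to 252 CPM (GW3965 and vehicle) in Villin-Cre mice and 33.2 to 64.2 CPM and 77.3 to 78.3 CPM in floxed mice. The defining fat cell genes Adipoq and Plin1 were at or near 0 in every liver library, at most 0.198 CPM. The part of the other markers in the results was not tested, and in bulk tissue fewer cells of a type and less RNA per cell cannot be told apart.

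In the ileum GW3965 raised Scd1 and Elovl1 in both genotypes, and the other changes differed. Of 9 genes tested, Scd1 and Elovl1 rose and Fads1, Fads2 and Fa2h fell in Villin-Cre mice, and these 5 stand against 52.5% of all 18656 genes, 21.5% upward and 31.1% downward, a like share. In floxed mice 5 rose (Scd1, Scd2, Elovl1, Elovl5 and Fa2h) and Elovl6 fell, against 35.6% of all genes that changed, 14.7% upward and 20.9% downward. The median log2 fold change was -0.08 in Villin-Cre mice (all genes -0.11) and 0.26 in floxed mice (all genes -0.08). The responses differed between the genotypes for 8 of 9 genes, 2 higher and 6 lower in Villin-Cre mice, against 33% of all genes, 14.6% higher and 18.4% lower. The averaged libraries left Scd1, Fads1 and Elovl1 called in Villin-Cre mice (7.83% of all genes), Scd1 and Fa2h in floxed mice (1.03%), and by limma 0 of the 9 in the difference (7 with an unadjusted p under 0.05, and 0.075% of all genes called). Elovl3 was not tested: 9 of 12 ileal libraries had 0 reads, which allows up to 0.136 to 0.164 CPM by group, and the highest value was 0.206 CPM.

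**Figure D2:**
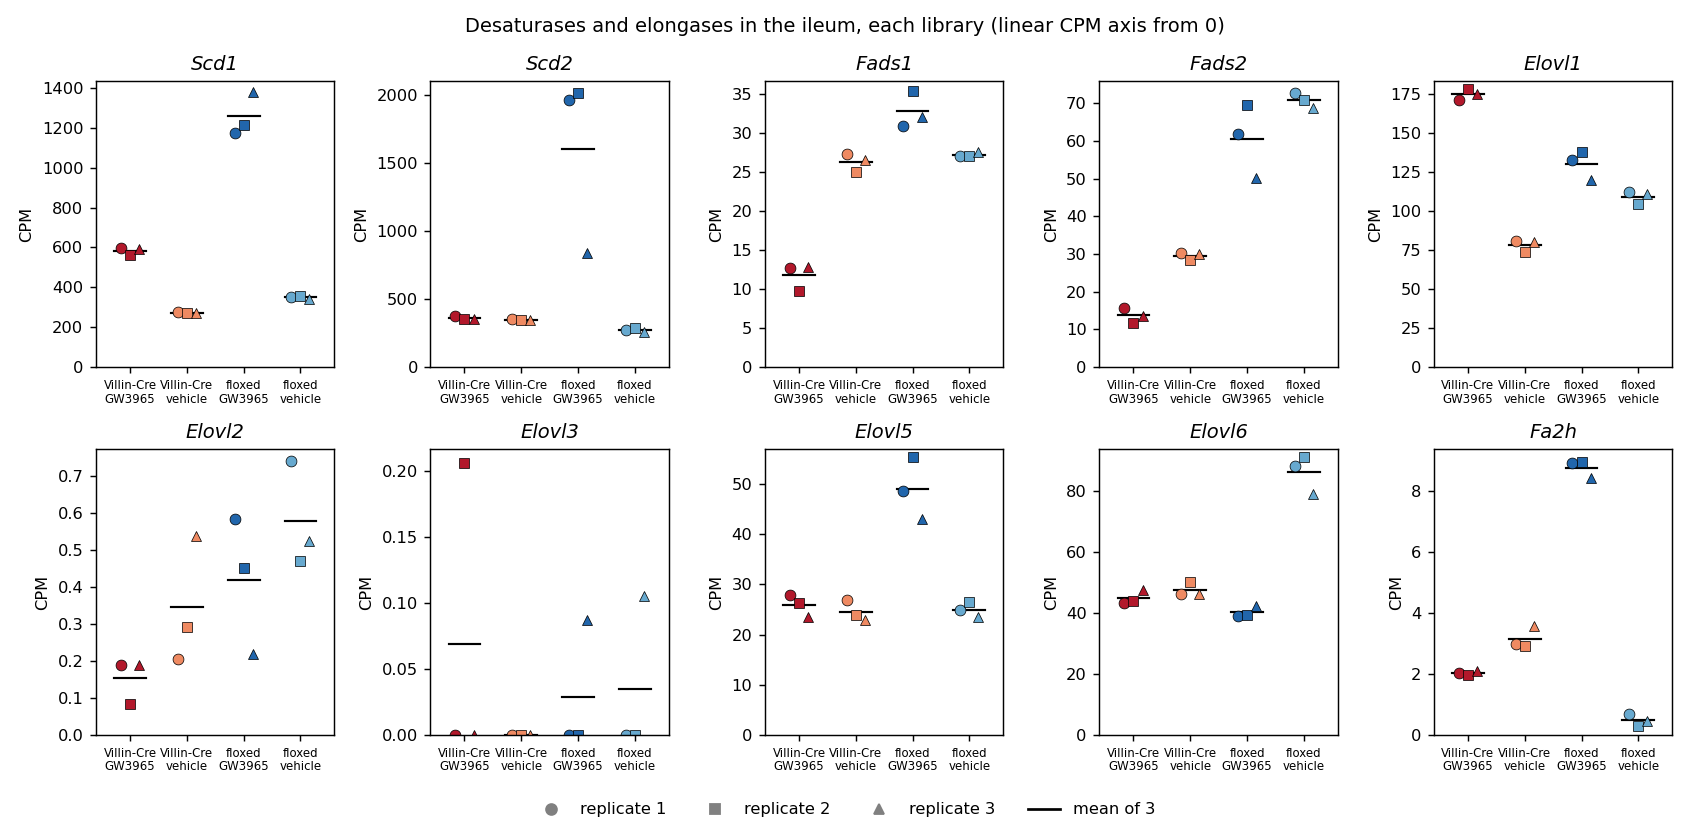
CPM of the 10 genes in each ileal library (points, marker shape by replicate) and the mean of 3 (line), on linear axes that start at 0, by genotype and treatment. Scd2 lies at 354 to 372 CPM in Villin-Cre mice given GW3965, 343 to 356 CPM in those given vehicle, 839 to 2015 CPM in floxed mice given GW3965 and 258 to 290 CPM in those given vehicle.

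Scd1 had 596, 564 and 590 CPM with GW3965 and 277, 271 and 272 CPM with vehicle in Villin-Cre ilea. In floxed ilea it had 1175, 1215 and 1379 CPM with GW3965, against 351, 358 and 341 CPM with vehicle. It was higher with GW3965 in all 6 treated libraries, and the floxed treated libraries were the highest of the 12. The log2 fold change was 1.09 ± 0.056 in Villin-Cre mice (adjusted p = 6.63e-11) and 1.84 ± 0.056 in floxed mice (adjusted p = 3.28e-13), a difference of -0.75 ± 0.079 (adjusted p = 1.86e-06). Scd2 had 372, 354 and 356 CPM with GW3965 and 356, 350 and 343 CPM with vehicle in Villin-Cre ilea. In floxed ilea it had 1961, 2015 and 839 CPM with GW3965, against 274, 290 and 258 CPM with vehicle. The Villin-Cre groups overlapped, while the floxed groups did not, with replicate 3 the lowest of the treated libraries. Scd2 changed by 0.04 ± 0.21 in Villin-Cre mice (adjusted p = 0.876) and by 2.44 ± 0.21 in floxed mice (adjusted p = 1.16e-07), and by 2.86 there without replicate 3. The difference was -2.40 ± 0.30 (adjusted p = 1.03e-05). Srebf1 had a like pattern, at 82.8 CPM with GW3965 and 77.8 CPM with vehicle in Villin-Cre ilea, and 412 CPM with GW3965 and 83.5 CPM with vehicle in floxed ilea (means, n = 3 each).

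Fads1 and Fads2 fell with GW3965 in Villin-Cre ilea. Fads1 had 12.7, 9.74 and 12.9 CPM with GW3965 and 27.3, 25.1 and 26.5 CPM with vehicle there, against 30.9, 35.4 and 32.1 CPM with GW3965 and 27.0, 27.1 and 27.5 CPM with vehicle in floxed ilea. Fads2 had 15.7, 11.8 and 13.6 CPM with GW3965 and 30.3, 28.3 and 29.9 CPM with vehicle in Villin-Cre ilea, against 61.8, 69.6 and 50.2 CPM with GW3965 and 72.8, 70.9 and 68.8 CPM with vehicle in floxed ilea. For both genes the Villin-Cre GW3965 libraries were the lowest of the 12, and for Fads2 the floxed groups overlapped. Fads1 fell by 1.14 ± 0.10 on the log2 scale in Villin-Cre mice (adjusted p = 5.08e-08) and had a log2 fold change of 0.26 ± 0.10 in floxed mice (adjusted p = 0.0516), which passed after rescaling by the median of gene ratios and without floxed GW3965 replicate 3 (0.28, adjusted p = 0.0372). Fads2 fell by 1.09 ± 0.11 in Villin-Cre mice (adjusted p = 2.57e-07) and had a log2 fold change of -0.24 ± 0.11 in floxed mice (adjusted p = 0.105), which passed without floxed GW3965 replicate 2 (-0.34, adjusted p = 0.0255). The responses differed by -1.40 ± 0.14 for Fads1 (adjusted p = 1.18e-06) and -0.85 ± 0.15 for Fads2 (adjusted p = 0.000426).

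Elovl1 rose in both genotypes. It had 171, 178 and 175 CPM with GW3965 and 81.1, 73.8 and 80.4 CPM with vehicle in Villin-Cre ilea, against 133, 138 and 120 CPM with GW3965 and 112, 105 and 111 CPM with vehicle in floxed ilea. No treated library overlapped its vehicle group. The log2 fold change was 1.15 ± 0.061 in Villin-Cre mice (adjusted p = 9.76e-11) and 0.25 ± 0.061 in floxed mice (adjusted p = 0.00422), with a difference of 0.90 ± 0.086 (adjusted p = 6.29e-07). Elovl5 had 27.96, 26.4 and 23.5 CPM with GW3965 and 26.8, 23.9 and 22.8 CPM with vehicle in Villin-Cre ilea, against 48.7, 55.4 and 43.1 CPM with GW3965 and 25.0, 26.4 and 23.4 CPM with vehicle in floxed ilea. Its groups overlapped in Villin-Cre mice and were apart in floxed mice. Elovl6 had 43.3, 44.0 and 47.4 CPM with GW3965 and 46.2, 50.01 and 46.2 CPM with vehicle in Villin-Cre ilea, against 39.0, 39.3 and 42.1 CPM with GW3965 and 87.95, 91.1 and 78.9 CPM with vehicle in floxed ilea. The floxed vehicle libraries stood above the other 9, which lay between 39.0 and 50.01 CPM. Elovl5 changed by 0.08 ± 0.099 in Villin-Cre mice (adjusted p = 0.526) and 0.96 ± 0.099 in floxed mice (adjusted p = 1.02e-06), and Elovl6 by -0.08 ± 0.071 (adjusted p = 0.358) and -1.09 ± 0.071 (adjusted p = 3.78e-09). Elovl2 was tested from 0.08 to 0.74 CPM and passed in neither genotype.

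Fa2h was a low transcript that went opposite ways in the 2 genotypes of the ileum. It had 2.03, 1.98 and 2.08 CPM with GW3965 and 2.98, 2.92 and 3.55 CPM with vehicle in Villin-Cre ilea, against 8.90, 8.94 and 8.41 CPM with GW3965 and 0.69, 0.29 and 0.47 CPM with vehicle in floxed ilea. None of its 4 groups overlapped another. The log2 fold change was -0.52 ± 0.19 in Villin-Cre mice (adjusted p = 0.0303) and 3.25 ± 0.19 in floxed mice (adjusted p = 1.18e-09), with a difference of -3.77 ± 0.27 (adjusted p = 2.66e-08). The fall in Villin-Cre mice did not pass on the deposited log2 values (adjusted p = 0.0692) or after rescaling by the median of gene ratios (-0.43), nor without Villin-Cre vehicle replicate 3 (-0.45, adjusted p = 0.102) or any 1 of the treated replicates (-0.54 to -0.51). Being lower in Villin-Cre mice and higher in floxed mice was a combination met by 1.47% of the genes tested.

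Marker levels in the ileum moved with the treatment. The summed level of 8 enterocyte markers was 14992 to 15443 CPM with GW3965 and 6404 to 6494 CPM with vehicle in Villin-Cre ilea, against 6566 to 8839 CPM with GW3965 and 4821 to 5059 CPM with vehicle in floxed ilea, and 8 and 7 of them rose. All 6 smooth muscle markers fell in both genotypes, with sums of 799 to 808 CPM with GW3965 and 6279 to 6598 CPM with vehicle in Villin-Cre ilea, against 2276 to 3426 CPM with GW3965 and 5945 to 6035 CPM with vehicle in floxed ilea. All 6 macrophage markers fell in both genotypes. Of 8 fat cell markers, which bear on Scd1 as a gene of adipose tissue, 5 rose in Villin-Cre ilea and 8 in floxed ilea, and their sums were 337 to 341 and 153 to 166 CPM (GW3965 and vehicle) in Villin-Cre ilea and 362 to 473 and 248 to 250 CPM in floxed ilea. Of 5 tested glial markers, which bear on Fa2h as a gene of myelin, 3 fell in Villin-Cre ilea and 1 rose in floxed ilea (0 without floxed GW3965 replicate 3). Of 12 clock genes, 9 rose and 3 fell in Villin-Cre ilea and 5 rose in floxed ilea. With GW3965, 52.5% of all genes tested changed in Villin-Cre ilea, 21.5% upward and 31.1% downward. In floxed ilea 35.6% changed, 14.7% upward and 20.9% downward. Taken in either direction, the glial counts and the clock count of floxed ilea did not stand far above these shares. The predicted gene Gm26917 took 3.92 to 4.20% of reads with GW3965 and 11.5 to 12.2% with vehicle in Villin-Cre ilea, and 6.56 to 7.905% with GW3965 and 10.4 to 11.6% with vehicle in floxed ilea. The part of these values in the results was not tested. In bulk tissue a change in cell number and a change in RNA per cell cannot be told apart.

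**Figure D3:**
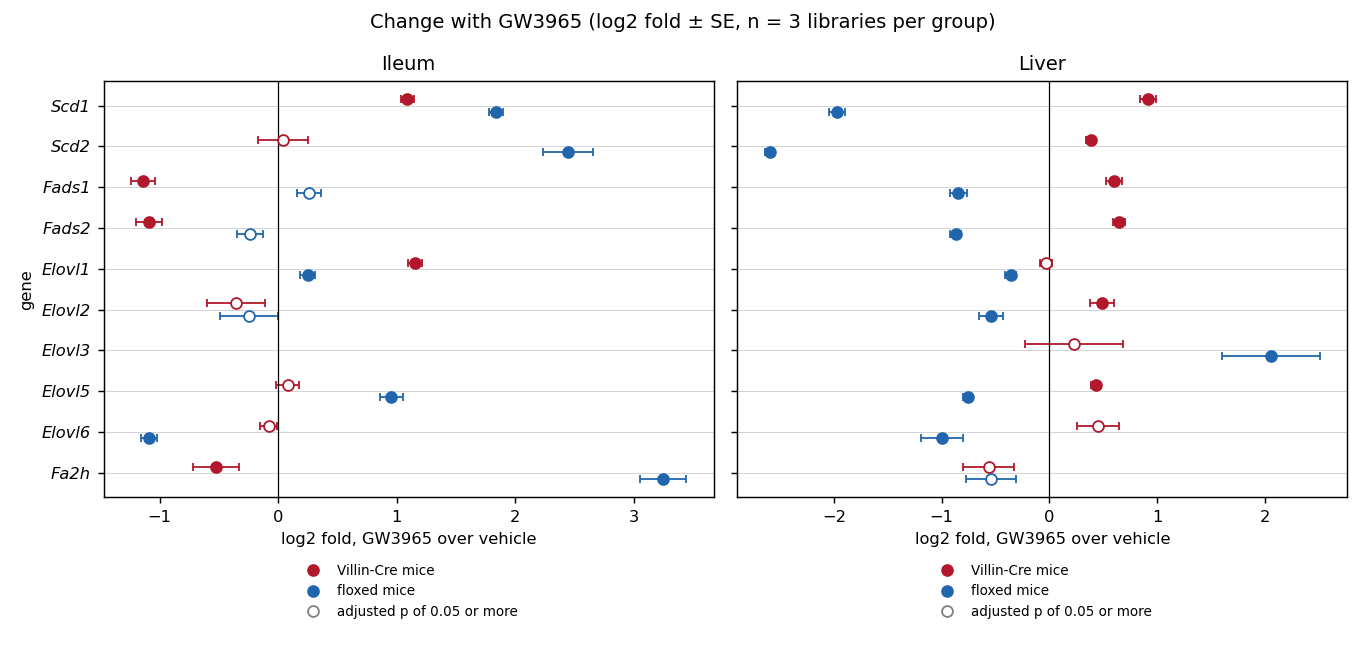
Log2 fold change of CPM, GW3965 over vehicle, with its standard error for each gene in the ileum (left) and the liver (right), Villin-Cre above floxed, n = 3 libraries a group. Filled points have an adjusted p under 0.05. Scd1 lies at 1.09 and 1.84 in the ileum and at 0.92 and -1.97 in the liver for Villin-Cre and floxed mice.

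The GW3965 responses of the ileum and the liver were set against each other within each genotype. In Villin-Cre mice Fads1 and Fads2 were lower with GW3965 in the ileum and higher in the liver, a combination met by 0.852% of the 16322 genes tested in both tissues, with differences (ileum minus liver, log2) of -1.74 ± 0.12 (adjusted p = 2.57e-11) and -1.73 ± 0.12 (adjusted p = 5.16e-11). Scd1 rose in both tissues, and its difference of 0.17 ± 0.077 did not pass (adjusted p = 0.0711). In all, 5 of 9 genes passed, Elovl1 higher in the ileum (1.18 ± 0.081) and Fads1, Fads2, Elovl2 (-0.85) and Elovl5 (-0.35) lower, against 42.8% of all genes (20.7% higher, 22.1% lower), a share near that of the 9. Elovl2 had only 0.08 to 0.54 CPM in Villin-Cre ilea, near the detection limit, so its ileal response could hardly show. With only the groups compared in the fit, 8 passed.

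In floxed mice Scd1, Scd2, Elovl1 and Elovl5 were higher with GW3965 in the ileum and lower in the liver, a combination met by 3.55% of the genes. The ileal response minus the liver response passed the test for 7 of 9 genes, all higher in the ileum, against 29.1% of all genes, 15.2% higher and 14% lower. It was 3.81 ± 0.077 for Scd1 (adjusted p = 3.14e-21), 5.04 ± 0.25 for Scd2 (adjusted p = 1.75e-13), 3.79 ± 0.30 for Fa2h (adjusted p = 5.09e-10) and 1.72 ± 0.10 for Elovl5 (adjusted p = 5.17e-12) on the log2 scale. Fads1 (1.11), Fads2 (0.63) and Elovl1 (0.61) also passed. Fa2h had at most 0.48 CPM in floxed livers, near the detection limit, so its liver response could hardly show. Elovl6 fell in both tissues of floxed mice, and its difference of -0.09 ± 0.22 did not pass (adjusted p = 0.794), but was -0.45 (adjusted p = 0.000231) without liver floxed GW3965 replicate 1. After averaging of close libraries limma called 0 of the 9 in each genotype, with an unadjusted p under 0.05 for 3 genes in Villin-Cre mice and for 6 in floxed mice, and it called 0.0613% and 0.00613% of all genes there.

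In livers of mice given vehicle, Villin-Cre against floxed, 8 of the 10 genes were lower (Scd1, Scd2, Fads1, Fads2, Elovl2, Elovl3, Elovl5 and Elovl6), while Elovl1 and Fa2h were higher. All 10 passed the test, against 56.8% of all genes, 45.1% higher and 11.7% lower. The median log2 fold change of the 10 was -1.33, against 0.26 for all genes. This comparison shares its vehicle groups with the GW3965 comparisons above, so the values are not independent of them. The fold changes were -1.59 for Scd1 (adjusted p = 4.40e-10), -1.47 for Scd2 (adjusted p = 4.97e-12), -0.93 for Fads1, -1.17 for Fads2, -1.65 for Elovl5 (adjusted p = 3.24e-12), -1.19 for Elovl2 and -1.95 ± 0.20 for Elovl6 (adjusted p = 1.18e-06). Elovl3 averaged 0.192 ± 0.0425 CPM in Villin-Cre mice and 8.32 ± 0.81 CPM in floxed mice (SD, n = 3 each), a log2 fold change of -3.67 ± 0.45 (adjusted p = 9.12e-06), which with voom on the recovered reads was -5.33 (adjusted p = 0.117). Elovl1 (0.35) and Fa2h (0.78) did not keep their calls once the median of all genes was set near 0 by rescaling (0.06 and 0.62), and Fa2h lost its call without Villin-Cre vehicle replicate 1 (0.66, adjusted p = 0.0539). Scd2 alone was called once close libraries were averaged (adjusted p = 0.044), against 0.93% of all genes.

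With GW3965 the liver genotypes stood the other way round for the Scd genes. In Villin-Cre mice 6 genes were higher (Scd1, Scd2, Fads1, Fads2, Elovl1 and Fa2h) and 3 lower (Elovl3, Elovl5 and Elovl6), against 55.9% of all genes that passed, 40.9% higher and 15% lower, and the median of all genes was 0.21. Scd1 averaged 20539 ± 282 CPM in Villin-Cre mice and 8365 ± 43.2 CPM in floxed mice, a log2 fold change of 1.30 (adjusted p = 2.07e-09), and Scd2 averaged 234 ± 6.5 CPM and 81.4 ± 2.49 CPM, a change of 1.52 (adjusted p = 1.30e-12). Errors are SDs of 3 libraries each. Elovl3 averaged 0.338 ± 0.272 CPM in Villin-Cre mice and 49.3 ± 49.0 CPM in floxed mice, a change of -5.50 ± 0.45 (adjusted p = 1.16e-07). The other changes were 0.68 for Elovl1, 0.52 for Fads1, 0.35 for Fads2, 0.76 for Fa2h, -0.46 for Elovl5 and -0.50 for Elovl6, and Elovl2, at -0.16, did not pass. Rescaling by the median of gene ratios ended the Fads2 call (0.11) and made one of Elovl2 (-0.40). The Elovl6 call (adjusted p = 0.0423) was lost without any library of the 2 groups but floxed GW3965 replicate 1, with values of -0.52 to -0.31, and was -0.85 without that one, while Fa2h did not pass without floxed GW3965 replicate 2 (0.63, adjusted p = 0.057). Averaging of close libraries left Scd2 and Elovl3 called, against 9.08% of all genes. Of the liver markers, all 6 of macrophages and all 5 of bile duct cells were higher in Villin-Cre mice under either treatment. The macrophage sums were 537 to 552 CPM in Villin-Cre mice and 244 to 374 CPM in floxed mice with GW3965, and 779 to 787 CPM in Villin-Cre mice and 375 to 380 CPM in floxed mice with vehicle. Of 5 tested smooth muscle markers 4 were higher in Villin-Cre mice under either treatment, with sums of 67.96 to 72.4 CPM in Villin-Cre mice and 23.7 to 27.6 CPM in floxed mice with GW3965, and 60.96 to 64.3 CPM in Villin-Cre mice and 27.3 to 29.1 CPM in floxed mice with vehicle. Of the 3 tested fat cell markers, whose sums are given above, Cidec and Fabp4 were higher in Villin-Cre mice under either treatment and Lipe was lower with GW3965. Of 7 hepatocyte markers, 4 were lower with GW3965 and 5 with vehicle. The part of these markers in the results was not tested.

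In ilea of mice given vehicle, 4 of 9 tested genes were lower in Villin-Cre than in floxed mice (Scd1, Fads2, Elovl1 and Elovl6) and Fa2h was higher, 5 in all against 40.3% of all genes, 9.61% higher and 30.7% lower, with a median of -0.18 over all genes. Fads2 averaged 29.5 ± 1.04 CPM in Villin-Cre mice and 70.8 ± 2.04 CPM in floxed mice (SD, n = 3 each), a log2 fold change of -1.25 ± 0.11 (adjusted p = 1.86e-07). Elovl6 averaged 47.5 CPM in Villin-Cre mice and 86.0 CPM in floxed mice, a change of -0.85 ± 0.071 (adjusted p = 1.03e-07), and Fa2h averaged 3.15 CPM and 0.486 CPM, a change of 1.90 ± 0.19 (adjusted p = 8.95e-07). Elovl1 changed by -0.48 and Scd1 by -0.36, and the Scd1 call was lost after rescaling (-0.11), which made one of Scd2 (0.60). With GW3965, 7 of 9 genes passed, against 51.9% of all genes, 13.6% higher and 38.3% lower, with a median of -0.24 over all genes. Elovl1 was higher in Villin-Cre mice (0.43), and Fads2 (-2.10), Scd2 (-2.05), Fa2h (-1.87), Fads1 (-1.45), Scd1 (-1.10) and Elovl5 (-0.90) were lower. Elovl6, at 0.16 (adjusted p = 0.0685), passed after rescaling (0.44) and without floxed GW3965 replicate 3 (0.19, adjusted p = 0.0231). With close libraries averaged, limma called Scd1, Fads1, Fads2 and Fa2h with GW3965, against 6.6% of all genes, and 0 of the 9 with vehicle (4 with an unadjusted p under 0.05, and 0.113% of all genes called). Of 8 enterocyte markers 7 were higher with GW3965 and 6 with vehicle, and all 6 smooth muscle markers were lower with GW3965. With GW3965 all 6 goblet cell markers were also lower in Villin-Cre mice (sums of 12775 to 13131 CPM, against 16957 to 22426 CPM in floxed mice), as were 6 of 7 hepatocyte markers (97.5 to 103 CPM, against 217 to 237 CPM), 4 of 5 tested glial markers and 5 of 8 fat cell markers, of which 2 were higher. With vehicle 4 of 6 macrophage markers were lower in Villin-Cre mice (140 to 148 CPM, against 190 to 196 CPM in floxed mice), as were 5 of 8 fat cell markers, 1 being higher, and 8 of 12 clock genes (444 to 464 CPM, against 606 to 629 CPM), 3 being higher. The part of these markers was not tested.

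**Figure D4:**
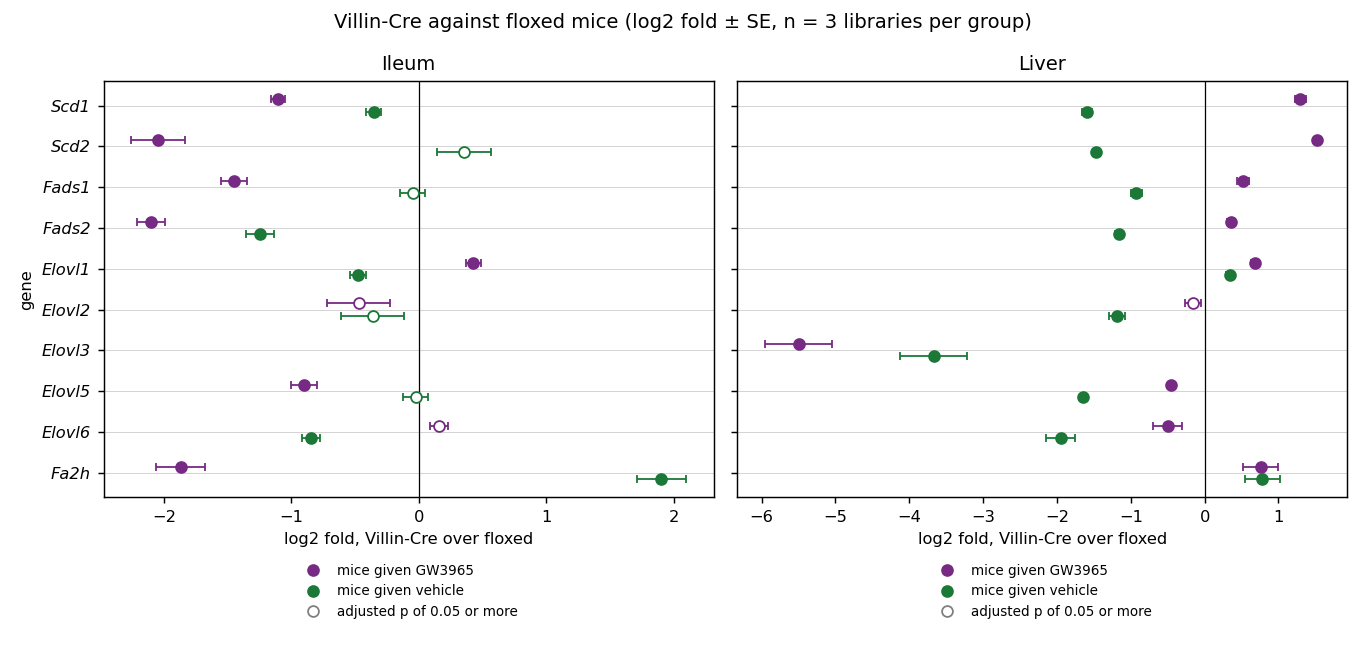
Log2 fold change of CPM, Villin-Cre over floxed, with its standard error for each gene in the ileum (left) and the liver (right), GW3965 above vehicle, n = 3 libraries a group. Filled points have an adjusted p under 0.05. In the liver Scd1 lies at 1.30 with GW3965 and at -1.59 with vehicle.

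In ileal levels per kilobase of exon, the Scd genes stood first and Elovl1 next in all 4 groups. Scd1 had 119 ± 3.51 CPM per kb and Scd2 66.0 in Villin-Cre mice given GW3965, where Scd2 and Elovl1 (64.2) did not differ beyond their SDs. In Villin-Cre mice given vehicle Scd2 (64.0) was above Scd1 (55.9). In floxed mice given GW3965 Scd2 (294 ± 122) and Scd1 (257 ± 22.1) did not differ beyond their SDs, and in floxed mice given vehicle Scd1 (71.6) was above Scd2 (50.1), followed by Elovl1 (40.1), Fads2 (21.5), Elovl6 (13.4), Elovl5 (7.08) and Fads1 (5.66 CPM per kb). The 10 genes took 0.119 to 0.124% of ileal reads in Villin-Cre mice given GW3965, 0.0825 to 0.0849% in Villin-Cre mice given vehicle, 0.251 to 0.358% in floxed mice given GW3965 and 0.091 to 0.0969% in floxed mice given vehicle.

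Partners and neighbours of these genes in lipid synthesis were followed in 5 lists. Among 17 relatives and partners (other desaturases, elongases, and the enzymes of the elongation cycle and of electron supply), 4 rose and 2 fell with GW3965 in Villin-Cre livers, and 1 rose and 8 fell in floxed livers, against 11.9% and 30.1% of all genes that changed there. Without floxed GW3965 replicate 1, 4 rose and 9 fell in floxed livers. Scd3 and Scd4, further desaturases of the Scd cluster, changed by 0.79 (adjusted p = 4.28e-06) and 0.59 (adjusted p = 0.0333) in Villin-Cre livers and by -1.48 (adjusted p = 2.29e-09) and -1.77 (adjusted p = 2.76e-06) in floxed livers. Scd3 shares 36 runs of 150 bases with Scd1, and reads from those stretches cannot be told apart. In Villin-Cre livers Fads6 also rose (0.29) and Hacd3 fell (-0.29), and in floxed livers Cyb5r3, the reductase that passes electrons to the desaturases, fell by 0.42 and Hsd17b12, the second enzyme of the elongation cycle, by 0.41. The responses differed for 7 of the 17, all higher in Villin-Cre mice, against 19.9% of all genes, 10.2% higher and 9.7% lower. With close libraries averaged, limma called 0 of all genes in that difference.

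Among 18 genes of fatty acid synthesis and its control, 2 rose and 1 fell in Villin-Cre livers and 1 rose and 7 fell in floxed livers with GW3965, against the same shares of 11.9% and 30.1%. Without floxed GW3965 replicate 1, 6 rose and 9 fell in floxed livers, and the list's summed level was 5511 CPM in that library and 10636 and 10791 CPM in the other two, against 11256 to 11292 CPM with vehicle. Srebf1 averaged 357 CPM with GW3965 and 306 CPM with vehicle in Villin-Cre livers (log2 fold change 0.22, adjusted p = 0.00365), against 472 CPM with GW3965 and 546 CPM with vehicle in floxed livers (-0.21, adjusted p = 0.00152). The responses differed by 0.43 (adjusted p = 0.000163). Mlxipl, which encodes the carbohydrate response factor ChREBP, rose in both genotypes, by 0.48 in Villin-Cre mice and 0.80 in floxed mice. Acaca, the acetyl-CoA carboxylase of fatty acid synthesis, fell by 0.76 in floxed livers, Insig2 by 0.89 and the lipid droplet gene Pnpla3 by 1.79. In the vehicle comparison of genotypes, 14 of the 18 were lower in Villin-Cre livers and 2 higher, against 56.8% of all genes that differed, with a median of -1.34 against 0.26 for all genes, and Fasn, the fatty acid synthase, changed by -2.82 (adjusted p = 4.20e-07). In the ileum 4 rose and 9 fell in Villin-Cre mice, with Fasn at -1.11 and Acly, ATP citrate lyase, at -0.68, and 6 rose and 2 fell in floxed mice, with Srebf1 at 2.23 ± 0.17, Insig1 at 0.79 and Acaca at 0.50, against 52.5% and 35.6% of all genes that changed in the ilea of those genotypes.

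Among 13 genes of fatty acid activation and esterification, GW3965 raised 2 in Villin-Cre livers, and raised 2 and lowered 4 in floxed livers (4 and 6 without floxed GW3965 replicate 1), against 11.9% and 30.1% of all genes. Acsl5, an acyl-CoA synthetase, changed by 0.43 in Villin-Cre livers and by -0.90 in floxed livers. In the ileum 9 rose and 2 fell in Villin-Cre mice, and 6 rose and 2 fell in floxed mice, against 52.5% and 35.6% of all genes. Acsl3, which activates fatty acids for lipid droplets, rose by 1.61 and 1.57 in Villin-Cre and floxed ilea. Of 12 genes of sphingolipid acyl chains 10 were tested, of which 1 rose and 3 fell in Villin-Cre livers, and 8 fell in floxed livers, against 11.9% and 30.1% of all genes. The list's summed level in floxed livers was 555 CPM in GW3965 replicate 1 and 739 and 743 CPM in the other two, against 734 to 756 CPM with vehicle, and 8 fell and 1 rose without that library. Cers2, the ceramide synthase for very long chains of the kind Elovl1 makes, changed by 0.16 and -0.53 in them. In Villin-Cre ilea Cers2 rose by 1.28 (adjusted p = 1.33e-09) beside the rise of Elovl1. All 5 LXR targets of sterol transport rose in the ileum of both genotypes, with a median of 1.19 in Villin-Cre mice and 2.21 in floxed mice. In the liver 1 of them rose in Villin-Cre mice, and 1 rose and 2 fell in floxed mice, against 11.9% and 30.1% of all genes. Their summed liver level was nevertheless higher with GW3965 in both genotypes, without overlap. It was 561 to 573 CPM with GW3965 and 419 to 430 CPM with vehicle in Villin-Cre livers. In floxed livers it was 656 to 693 CPM with GW3965 and 540 to 553 CPM with vehicle. A sum leans on the genes with the highest levels. With close libraries averaged, the calls that stayed in the GW3965 comparisons of these lists were ileal: 3 and 5 LXR targets, 4 and 1 relatives, and 2 and 1 genes of activation in Villin-Cre and floxed mice, with Cers2 in Villin-Cre mice.

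**Figure D5:**
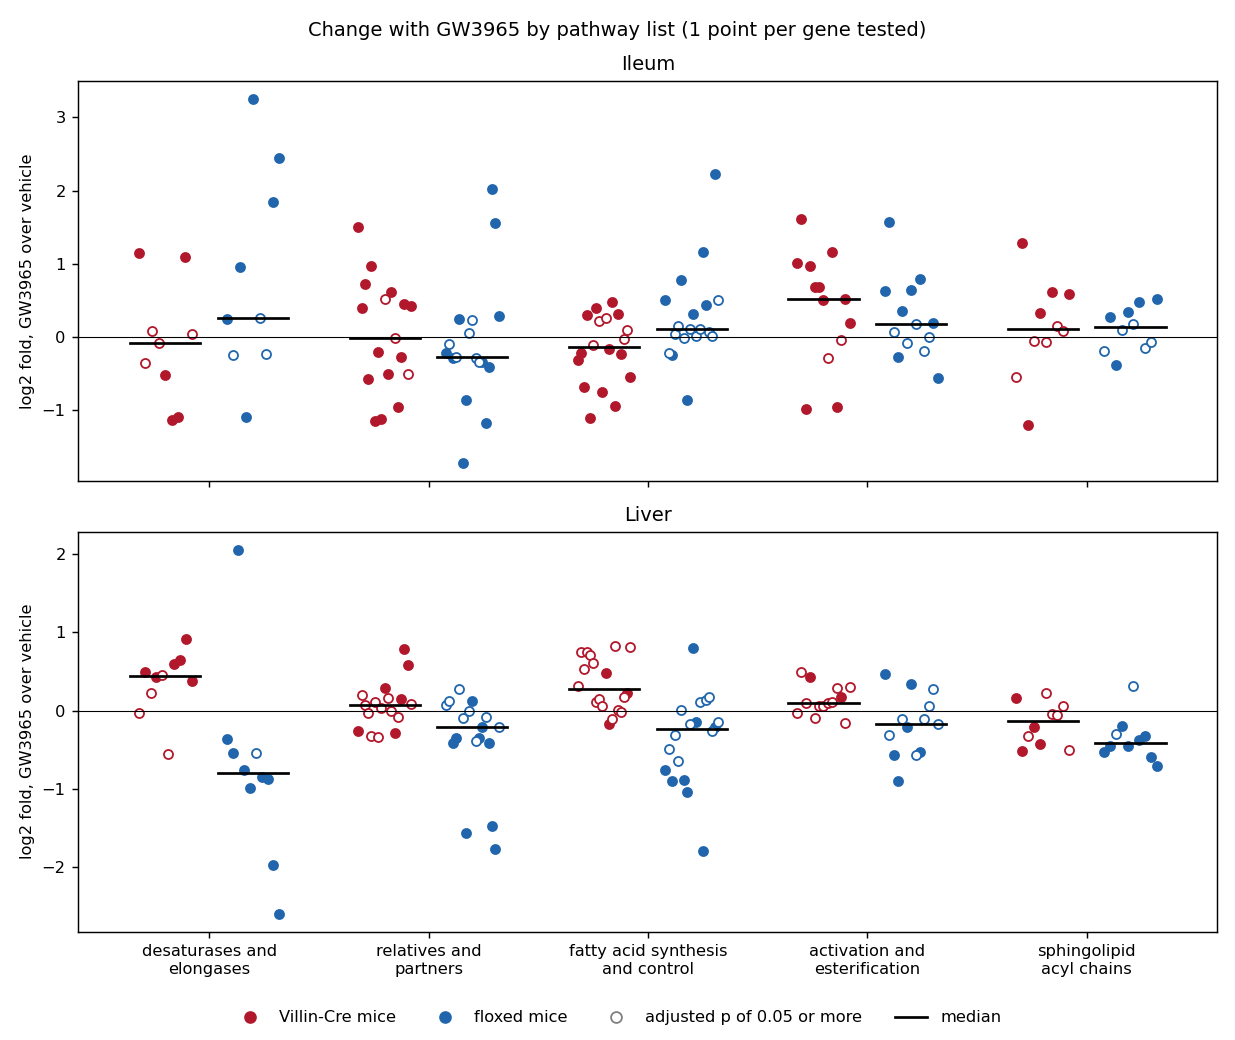
Log2 fold change of CPM, GW3965 over vehicle, for every tested gene (points) of the 10 genes and of 4 lists of related genes, with the median of each list (bar), in the ileum (top) and the liver (bottom) of Villin-Cre and floxed mice. In the liver the medians of the desaturases and elongases are 0.44 in Villin-Cre mice and -0.80 in floxed mice, and those of the synthesis genes are 0.27 and -0.23.

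The genes whose pattern over the 12 libraries of a tissue was closest to that of the Scd genes were ranked by the root mean square difference of their centred log2 values, among 10347 genes in the liver and 10313 in the ileum with a mean of at least 5 CPM. For liver Scd1, which itself varied by 0.77 around its mean on this measure, they were Scd3 (0.23), Racgap1 (0.24) and Scd4 (0.24). For liver Scd2 they were Raet1e (0.25), Scd1 (0.30) and Iqgap3 (0.34). Racgap1 averaged 6.385 CPM with GW3965 and 4.77 CPM with vehicle in Villin-Cre livers, against 3.55 CPM with GW3965 and 12.75 CPM with vehicle in floxed livers. For ileal Scd1 the closest were Ppara (0.28), Scd3 (0.29) and Abcg8 (0.30), and for ileal Scd2 Srebf1 (0.21), Abcg1 (0.25) and Scd3 (0.32). Abcg8, Abcg1 and Srebf1 are known LXR targets. For liver Elovl3, which varied by 2.48 on this measure, Car3 (0.71), Cyp4a12a (1.02) and Inmt (1.06) came nearest. Car3 averaged 41.0 CPM with GW3965 and 35.3 CPM with vehicle in Villin-Cre livers, against 1512 CPM with GW3965 and 638 CPM with vehicle in floxed livers, and Cyp4a12a is one of the male-biased genes summed above. These rankings describe the libraries and were not tested.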

How the data were processed

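The authors deposited log2 expression values, 1 table per tissue with 12 libraries each. The submitters' processing notes name the GRCm38 build, STAR 2.5.1a and featureCounts 1.4.6-p5 of Subread, after bcl2fastq. Neither the log formula nor the strand setting is given in those notes. Of 40757 entries, 276 were repeats and were dropped. The lowest value, -5.62 in all libraries, was taken as 0 reads. Subtracting it on the linear scale gave CPM whose low values were whole reads within 0.05 reads. Larger values were not checked in this way.

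A gene was tested if 3 or more libraries reached 0.5 CPM. Log2(CPM + 0.5) was fitted by limma 3.58.1 (R 4.3.3) with a mean for each group, an empirical Bayes trend, Benjamini-Hochberg adjustment over all genes tested and a threshold of 0.05. Fold changes on this scale understate those of low genes. Each tissue was fitted alone, and both together (24 libraries) for the ileum minus liver difference. The fit was tested on simulated data. The 10 genes and all lists were chosen with earlier results of these data known. Of each list up to 4 genes with the smallest adjusted p in a comparison could be named, with Abca1, Srebf1 and the closest patterns. Promoters come from RefSeq. For Fa2h and Elovl3, reads were few. Elovl1 and Elovl3 exons overlap Cdc20 and Pitx3 on the other strand by 53 and 10 bases. Alternatives are given in the closing section.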

Additional observations from a re-analysis of the deposited data

Results flagged for a closer look

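The GW3965 response differed between the genotypes, by limma's test of the interaction, for 8 genes in each tissue, against 19.9% of all genes in the liver and 33% in the ileum. All of these calls were lost once close libraries were averaged. In the liver the response of Villin-Cre mice minus that of floxed mice, on the log2 scale, was 2.89 for Scd1, 2.99 for Scd2, 1.45 for Fads1, 1.52 for Fads2, 0.33 for Elovl1, 1.03 for Elovl2, 1.19 for Elovl5 and 1.45 for Elovl6. In the ileum it was -0.75 for Scd1, -2.40 for Scd2, -1.40 for Fads1, -0.85 for Fads2, 0.90 for Elovl1, -0.88 for Elovl5, 1.01 for Elovl6 and -3.77 for Fa2h.

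The response also differed between the tissues. Of all genes 42.8% passed in Villin-Cre mice, a share near that of the genes followed here, and 29.1% in floxed mice. These calls too were lost once close libraries were averaged. Ileal Elovl2 and liver Fa2h were near the detection limit. In Villin-Cre mice the ileal response minus the liver response was -1.74 for Fads1, -1.73 for Fads2, 1.18 for Elovl1, -0.85 for Elovl2 and -0.35 for Elovl5. In floxed mice it was 3.81 for Scd1, 5.04 for Scd2, 1.11 for Fads1, 0.63 for Fads2, 0.61 for Elovl1, 1.72 for Elovl5 and 3.79 for Fa2h.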

How the results depend on the processing

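The number of the 10 genes past the threshold stayed within 1.5 times its value in every comparison under a pseudocount of 2 CPM, the deposited log2 values, no filter, both rescalings (median of gene ratios, trimmed mean) and voom. With only the groups compared, it did so except that 8 genes passed in the tissue difference of Villin-Cre mice. With 1 library left out it ranged from 4 to 5 (Villin-Cre GW3965), 6 to 7 (floxed GW3965), 7 to 8 (genotypes, GW3965), 5 (genotypes, vehicle) and 8 (interaction) in the ileum, at 6, 9 to 10, 7 to 9, 9 to 10 and 8 to 9 in the liver in the same order, and at 5 in Villin-Cre and 7 to 8 in floxed mice for the tissue difference.

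Averaging close libraries cut every limma count, with 1 residual degree of freedom a tissue, to 3, 2, 4, 0 and 0 in the ileum, 0, 1, 2, 1 and 0 in the liver in that order, and 0 for both tissue differences. Where the count was 0, the number with an unadjusted p under 0.05 was 4 (ileal genotypes, vehicle), 7 (ileal interaction), 0 (liver Villin-Cre GW3965), 5 (liver interaction), 3 and 6 (tissue difference, Villin-Cre and floxed).

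Same-numbered libraries of a tissue did not deviate together (correlations over 18 pairs a tissue were -0.04 to 0.055 for ileum, -0.026 to 0.031 for liver). Technical libraries would also show little shared deviation. Those pairs lay within a tissue, so whether an ileal and a liver library came from the same animal was not tested. The tissue difference was fitted without such a pairing. With the replicate number as a block, the call that changed was Elovl6 in the tissue difference of Villin-Cre mice (-0.54, adjusted p = 0.0424, 6 calls in place of 5).

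Signs turned for values near 0. Rescaling by the median of gene ratios and by the trimmed mean gave 0.035 and 0.052 for ileal Elovl6 (Villin-Cre GW3965), 0.195 and 0.193 for ileal Fads1 and 0.217 and 0.216 for ileal Elovl5 (genotypes, vehicle), 0.066 and 0.065 for liver Elovl1 (Villin-Cre GW3965), and 0.083 and 0.081 for the liver interaction of Fa2h. That interaction was 1.946 on the deposited values, 1.999 with voom and 0.047 averaged. The tissue difference was -0.029 for Elovl2 in floxed mice with voom, 0.10 for Elovl6 in floxed mice averaged and -0.091 for Fa2h in Villin-Cre mice with a pseudocount of 2 CPM. Leaving out libraries turned Elovl5 (ileal genotypes, vehicle, -0.091 to 0.023), Elovl2 (ileal interaction, -0.278 to 0.047; liver genotypes, GW3965, -0.256 to 0.036), Elovl1 and Elovl3 (liver Villin-Cre GW3965, -0.072 to 0.004 and -0.021 to 0.393), Fa2h (liver interaction, -0.207 to 0.244) and, for the tissue difference, Elovl6 in floxed mice (-0.446 to 0.098) and Fa2h in Villin-Cre mice (-0.086 to 0.226). The causes were not tested.

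Rescaling also moved the share of higher calls over all genes, to 52.1% from 26.1% and 57.9% from 23.8% for the ileal genotypes (GW3965, vehicle), 51.3% from 73.1% and 49.3% from 79.3% for the liver genotypes, 59.9% from 24% for liver Villin-Cre GW3965, 44.8% from 34.5% for liver floxed GW3965 and 53.4% from 41.2% for ileal floxed GW3965. Liver Elovl6 between genotypes with GW3965 did not pass without a filter (adjusted p = 0.0998). Liver Fa2h in floxed mice passed on the deposited values (-2.86, adjusted p = 0.0249) and with voom (-2.89). Depth limits Fa2h in the liver, Elovl3 outside floxed livers and Elovl2 in the ileum.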
